A study of Arabidopsis thaliana with 36 samples.

Results

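ETHYLENE RESPONSE FACTOR (ERF) genes encode plant transcription factors with a single AP2/ERF DNA-binding domain, and 10 of them that are known to be induced early in stress were followed here by their locus identifiers among the 28775 genes of the count table. They were ERF1 (AT3G23240), ERF1A (AT4G17500), ERF2 (AT5G47220), ERF4 (AT3G15210), ERF5 (AT5G47230), ERF6 (AT4G17490), ERF8 (AT1G53170), ERF11 (AT1G28370), ERF104 (AT5G61600) and ERF105 (AT5G51190), and all 10 were in the table. Sequencing was done on RNA of the lower root part of seedlings aged 5 days, of the wild-type Landsberg erecta (Ler), della5x (labelled della quintuple), gai and ga4, after transfer to medium with 140 mM NaCl or to mock medium. All 4 lines were sampled after 8 h, and Ler and della5x also after 1 h, with 3 libraries for each of the 12 groups and thus 36 libraries. In della5x, which is in the Ler background, all genes for DELLA proteins are mutated (the alleles rgl1-1, rgl2-1 and rgl3-4 together with gai-t6 and rga-t2), so that it lacks the repressors through which gibberellin (GA) acts. In gai the DELLA protein GAI is stabilised and GA signalling is weak, and ga4 cannot complete a late GA synthesis step. Each library came from 50 to 100 pooled seedlings, and the whole organ segment was sequenced, so that a level is an average over all its cell types and fewer cells of a type and less RNA per cell cannot be told apart.

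ERF proteins of this kind were first described as factors that bind the GCC box, and they stand at the end of ethylene signalling, where the EIN3 and EIL1 proteins activate ERF1. Many of them are also induced within minutes by wounding, touch, cold, microbial patterns or osmotic stress without a need for ethylene, and MAP kinases phosphorylate and stabilise several of the proteins. The family is divided by sequence into groups. Of the genes followed here, ERF4, ERF8 and ERF11 belong to group VIII, whose members carry an EAR motif and repress transcription. ERF1, ERF1A, ERF2, ERF5, ERF6, ERF104 and ERF105 belong to group IX, whose members activate transcription. ERF1 integrates ethylene and jasmonate signals in defence. ERF1A and ERF2 are activators of GCC-box genes, ERF5 and ERF6 restrain leaf growth under osmotic stress, and ERF104 is a substrate of the kinase MPK6. ERF105 is known for its part in freezing tolerance. ERF4 and ERF8 are linked to leaf senescence, and ERF11 represses ethylene synthesis and promotes GA responses by antagonising DELLA proteins. ERF6 is a reported activator of GA2OX6, which encodes an enzyme that inactivates GA, and it is this link that ties the genes to the question of the study, the part of GA and DELLA proteins in root responses to salt.

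In the TAIR10.1 annotation of RefSeq, each of the 10 genes has a single exon. ERF6 (chromosome 4, positions 9752824 to 9754161, minus strand) and ERF1A (chromosome 4, 9759203 to 9760391, plus strand) are neighbours that point away from each other, with 5041 bases between them. ERF2 (chromosome 5, 19171643 to 19172956, minus strand) and ERF5 (chromosome 5, 19179881 to 19181182, plus strand) also point away from each other, with 6924 bases and 1 protein-coding gene between them. ERF104 (chromosome 5, 24766344 to 24767732, minus strand) lies 832 bases from ERF107, another group IX gene, and ERF11 (chromosome 1, 9955774 to 9956980, minus strand) lies 2668 bases from ERF12, another group VIII gene. ERF1 is at positions 8295617 to 8296604 of chromosome 3 on the plus strand, ERF4 at 5121303 to 5122562 of chromosome 3 on the plus strand and ERF8 at 19821337 to 19822399 of chromosome 1 on the minus strand. ERF105 (chromosome 5, 20800473 to 20801437, minus strand) lies wholly within AT5G51180 on the opposite strand. Because the strand setting of the counting is not given in the sources used here, reads of ERF105 and AT5G51180 cannot be told apart with certainty. AT5G51180 had group means of 23.9 to 31.8 CPM (counts scaled to a common library size), for this gene without TMM normalisation. The level of ERF105, normalised by TMM like all other CPM values here, ranged from 0.0968 to 85.0 CPM across libraries. Among 185 pairs of a followed gene with another ERF gene, the longest identical stretch between 2 transcripts was 31 bases, shorter than the read length of 150 bases.

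The 300 bases upstream of the annotated gene are printed here for 4 of the genes, because they include the pairs and the genes on which the results below turn. ERF1A and ERF2 are a pair from separate chromosomes, ERF4 was called in every salt response, and ERF11 has the one GCC box found. The sequence is that of the reference accession, not of Ler, and it is written 5′ to 3′ on the strand of the gene. In ERF4 and ERF8 the annotated transcript begins further inside the gene. Capitals mark matches on either strand to the GCC box GCCGCC, the W box core TTGAC, the rapid stress response element CGCGTT, the abscisic acid response element core ACGTG and the G box CACGTG.
ERF1A, chr4:9758903-9759202, plus strand: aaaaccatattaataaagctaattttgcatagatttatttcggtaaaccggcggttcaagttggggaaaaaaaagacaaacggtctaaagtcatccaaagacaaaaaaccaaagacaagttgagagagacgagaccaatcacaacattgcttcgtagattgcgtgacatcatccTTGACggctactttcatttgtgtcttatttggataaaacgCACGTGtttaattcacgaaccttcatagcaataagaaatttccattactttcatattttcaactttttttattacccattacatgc
ERF2, chr5:19172957-19173256, minus strand: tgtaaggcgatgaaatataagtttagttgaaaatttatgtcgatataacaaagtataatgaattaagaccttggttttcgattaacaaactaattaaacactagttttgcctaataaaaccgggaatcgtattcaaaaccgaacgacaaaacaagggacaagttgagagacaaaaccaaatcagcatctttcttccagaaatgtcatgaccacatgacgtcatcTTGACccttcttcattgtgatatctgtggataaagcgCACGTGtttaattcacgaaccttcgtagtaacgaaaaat
ERF4, chr3:5121003-5121302, plus strand: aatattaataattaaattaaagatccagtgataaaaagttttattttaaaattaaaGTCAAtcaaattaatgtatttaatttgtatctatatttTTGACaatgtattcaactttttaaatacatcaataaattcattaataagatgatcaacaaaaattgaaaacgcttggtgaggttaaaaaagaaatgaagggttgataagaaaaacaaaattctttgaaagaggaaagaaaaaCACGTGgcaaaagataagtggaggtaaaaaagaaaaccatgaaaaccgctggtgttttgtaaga
ERF11, chr1:9956981-9957280, minus strand: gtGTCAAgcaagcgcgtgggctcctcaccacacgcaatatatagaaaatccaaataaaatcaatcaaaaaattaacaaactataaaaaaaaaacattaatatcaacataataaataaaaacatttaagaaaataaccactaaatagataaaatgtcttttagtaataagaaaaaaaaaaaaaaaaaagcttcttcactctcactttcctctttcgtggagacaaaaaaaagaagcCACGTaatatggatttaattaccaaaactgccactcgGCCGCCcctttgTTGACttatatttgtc

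The windows of ERF1A and ERF2 share an identical run of 26 bases that includes the G box and that starts 88 bases before ERF1A and 41 bases before ERF2:
shared run: cgcacgtgtttaattcacgaaccttc
The next longest run shared by the windows of any pair of the 10 genes was 12 bases. A G box was found upstream of 3 of the 10 genes (ERF1A, ERF2 and ERF4) and of 7.186% of the windows of the same length at 26704 genes. The core ACGTG, which is also part of every G box on both strands, was found at 6 of the 10 genes and in 25.76% of all windows, and the W box core at 6 of the 10 and in 50.44%. The GCC box was found at ERF11 alone among the 10, and in 2.243% of all windows. The rapid stress response element was found at none of the 10 and in 3.089% of all windows. A match is a description of the letters and not of a binding site.

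Library totals lay between 16772984 and 23811804 counts (median 18884857), and all 36 pairs of replicates of a group differed by more than sampling noise. All 7 root markers were detected in every library, with summed levels of 11096 to 21186 CPM. Of 5 green shoot markers, LHCB1.3 (3.12 to 81.6 CPM) and RBCS1A (1.59 to 53.7 CPM) were detected in every library, while LHCB1.1, LHCB2.1 and RBCS3B were at 2.13 CPM or less and at 0 in 26, 9 and 11 libraries. Among these markers, RBCS1A and SHR fell and WOX5 rose at 8 h of salt in all 4 lines, with log2 fold changes of -2.35, -0.62 and 1.21 in Ler, PLT1 fell in 3 of the lines, and none was called at 1 h. The part of a changed tissue make-up in the ERF responses at 8 h was not tested. A pair of della5x libraries stood apart from the other replicates of their groups in the ERF genes. In the first of them, salt 1 h replicate 2, 17.9% of 20714 genes lay more than 2-fold from the mean of the other replicates. In the second, salt 8 h replicate 3, it was 12.3%. The other 34 libraries had 3.51% to 12.6%. The 12.6% was that of della5x salt 1 h replicate 3, for which the mean of the other replicates included replicate 2. The next highest of the 34 was 9.72%, in ga4 salt 8 h replicate 3. The pair were the only libraries of the 36 in which all 10 ERF genes were higher than in both other replicates. In the first of them the 10 genes stood 2.01-fold (ERF4) to 53.0-fold (ERF2) above the mean of the other replicates, with a median of 6.23-fold, and in the second 1.27-fold (ERF4) to 55.1-fold (ERF2), with a median of 4.61-fold. The summed level of 8 touch- and wound-induced genes (TCH2, TCH3, TCH4, CML37, ZAT12, WRKY40, ORA47 and CBF2) was 836 CPM in the first and 903 CPM in the second, against 133 to 425 CPM in the other 16 salt libraries. The part of touch or wounding in the levels of the ERF genes was not tested. Their green shoot markers summed to 8.43 and 8.79 CPM, at the low end of the 8.43 to 127 CPM over all libraries. The responses of della5x are given below with and without them. Since each fit shares 1 estimate of the spread, leaving them out also changes the calls of the other lines, which are given too.

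Expression levels of the 10 genes in unstressed Ler roots spanned 2 orders of magnitude. Per kilobase of transcript, the order of the mean levels under mock conditions at 1 h was ERF4 (36.4 ± 3.73 CPM per kb, SD, n = 3), ERF1A (28.6 ± 3.81), ERF5 (21.4 ± 3.34), ERF104 (8.31 ± 1.12), ERF8 (3.59 ± 0.82), ERF6 (2.00 ± 0.62), ERF105 (0.640 ± 0.145), ERF1 (0.609 ± 0.196), ERF11 (0.281 ± 0.077) and ERF2 (0.199 ± 0.234). In this order ERF4 and ERF1A, ERF105 and ERF1, and ERF11 and ERF2 overlapped in their replicates, and the other neighbours did not. After 1 h of salt the order was ERF4 (134.8 ± 22.9 CPM per kb), ERF5 (30.6 ± 4.76), ERF104 (25.99 ± 2.31), ERF8 (24.5 ± 3.43), ERF1A (19.2 ± 5.61), ERF105 (14.2 ± 2.92), ERF6 (4.13 ± 1.09), ERF11 (3.69 ± 1.13), ERF1 (0.992 ± 0.663) and ERF2 (0.771 ± 0.433). ERF4 was above all others in each of the 3 salt libraries, while ERF5, ERF104, ERF8, ERF1A and ERF105 formed a run in which each overlapped its neighbour. ERF1 and ERF2, the defence-linked activators, had the lowest means on salt, where ERF11 and ERF2 had had them under mock conditions.

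**Figure D1:**
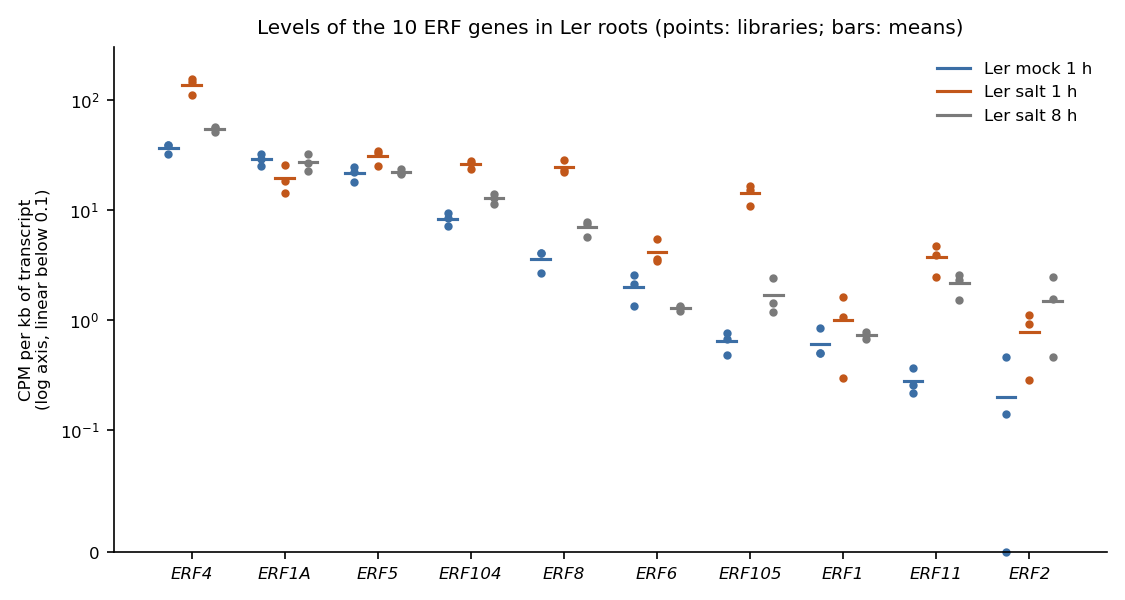
Level of each ERF gene per kilobase of transcript in Ler roots (CPM per kb, log axis that is linear near 0) under mock conditions at 1 h and on salt at 1 h and 8 h, with a point for each of the 3 libraries and a bar for their mean. ERF4 had the highest mean in each of these groups, and ERF105 moved from 0.640 to 14.2 CPM per kb between mock and salt at 1 h.

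After 1 h of salt the wild-type roots had higher transcript levels of all 3 group VIII repressors and of 2 of the 7 group IX activators. A gene was called when its adjusted P was under 0.05 and its log2 fold change was above 0.5 or below -0.5. In Ler, 5 of the 10 genes rose (ERF4, ERF8, ERF11, ERF104 and ERF105) and none fell, where 8.54% of 20073 tested genes rose and 5.37% fell. The median log2 fold change was 1.76 over the 10 genes and -0.01 over all tested genes.

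ERF8 had 3.74, 3.70 and 2.42 CPM in the 3 mock libraries and 20.2, 26.04 and 21.1 CPM in the 3 salt libraries. The groups were far apart, with a log2 fold change of 2.76 ± 0.29 (SE, adjusted P = 0.000103). ERF4, the most abundant of the genes, had 44.0, 43.9 and 36.6 CPM under mock conditions and 164, 174 and 124 CPM on salt, again without overlap, and rose by 1.88 ± 0.32 on the log2 scale (adjusted P = 0.00232). ERF11 rose from 0.307, 0.436 and 0.258 CPM to 4.63, 5.58 and 2.93 CPM. Its log2 fold change was 3.68 ± 0.95 (adjusted P = 0.0218), and the call was lost without any 1 of the mock libraries or without salt replicate 2 (adjusted P up to 0.0758 when 1 library was left out).

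Among the activators, ERF105 rose from barely detected levels of 0.736, 0.654 and 0.464 CPM to 14.7, 15.8 and 10.5 CPM. The log2 fold change of 4.46 ± 1.02 (adjusted P = 0.0124) was the largest of the 10 genes, and the adjusted P was 0.0506 or less with each library left out, missing the threshold narrowly without mock replicate 2 or 3. ERF104 had 13.01, 9.91 and 11.7 CPM under mock conditions and 37.1, 38.7 and 32.5 CPM on salt, which did not overlap. Its log2 fold change was 1.64 ± 0.51 with an adjusted P of 0.0499, and the call was lost when any 1 of the 6 Ler libraries was left out (adjusted P 0.0996 to 0.146). In a fit of the 6 Ler libraries alone, which did not share its estimate of the spread with the della5x library that stood apart, the adjusted P of ERF104 was 0.000203. ERF5 (adjusted P = 0.0498) and ERF6 (adjusted P = 0.0492) were also called in that fit, which made 7 of the 10, where 10.7% of 19454 tested genes rose. The same 7 genes were called in the fit of both lines without the della5x library (adjusted P = 0.0346 for ERF5 and 0.0218 for ERF6), where 10.1% of 20259 tested genes rose.

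ERF6, the reported GA2OX6 activator, had 1.78, 2.83 and 3.40 CPM under mock conditions and 7.21, 4.79 and 4.58 CPM on salt. All salt libraries were above all mock libraries, but the log2 fold change of 1.04 ± 0.58 did not pass the test (adjusted P = 0.258). ERF5 had 28.8, 23.2 and 31.8 CPM against 32.8, 44.3 and 42.4 CPM, with a log2 fold change of 0.51 ± 0.36 (adjusted P = 0.381). ERF1A was the exception in sign, with 38.4, 34.3 and 29.3 CPM under mock conditions and 21.6, 30.03 and 16.9 CPM on salt, which overlapped (log2 fold change -0.58 ± 0.62, adjusted P = 0.579). ERF1 and ERF2 were at or under 1.60 CPM in all 6 libraries and had log2 fold changes of 0.67 ± 1.04 and 1.95 ± 1.75, neither of which passed the test.

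**Figure D2:**
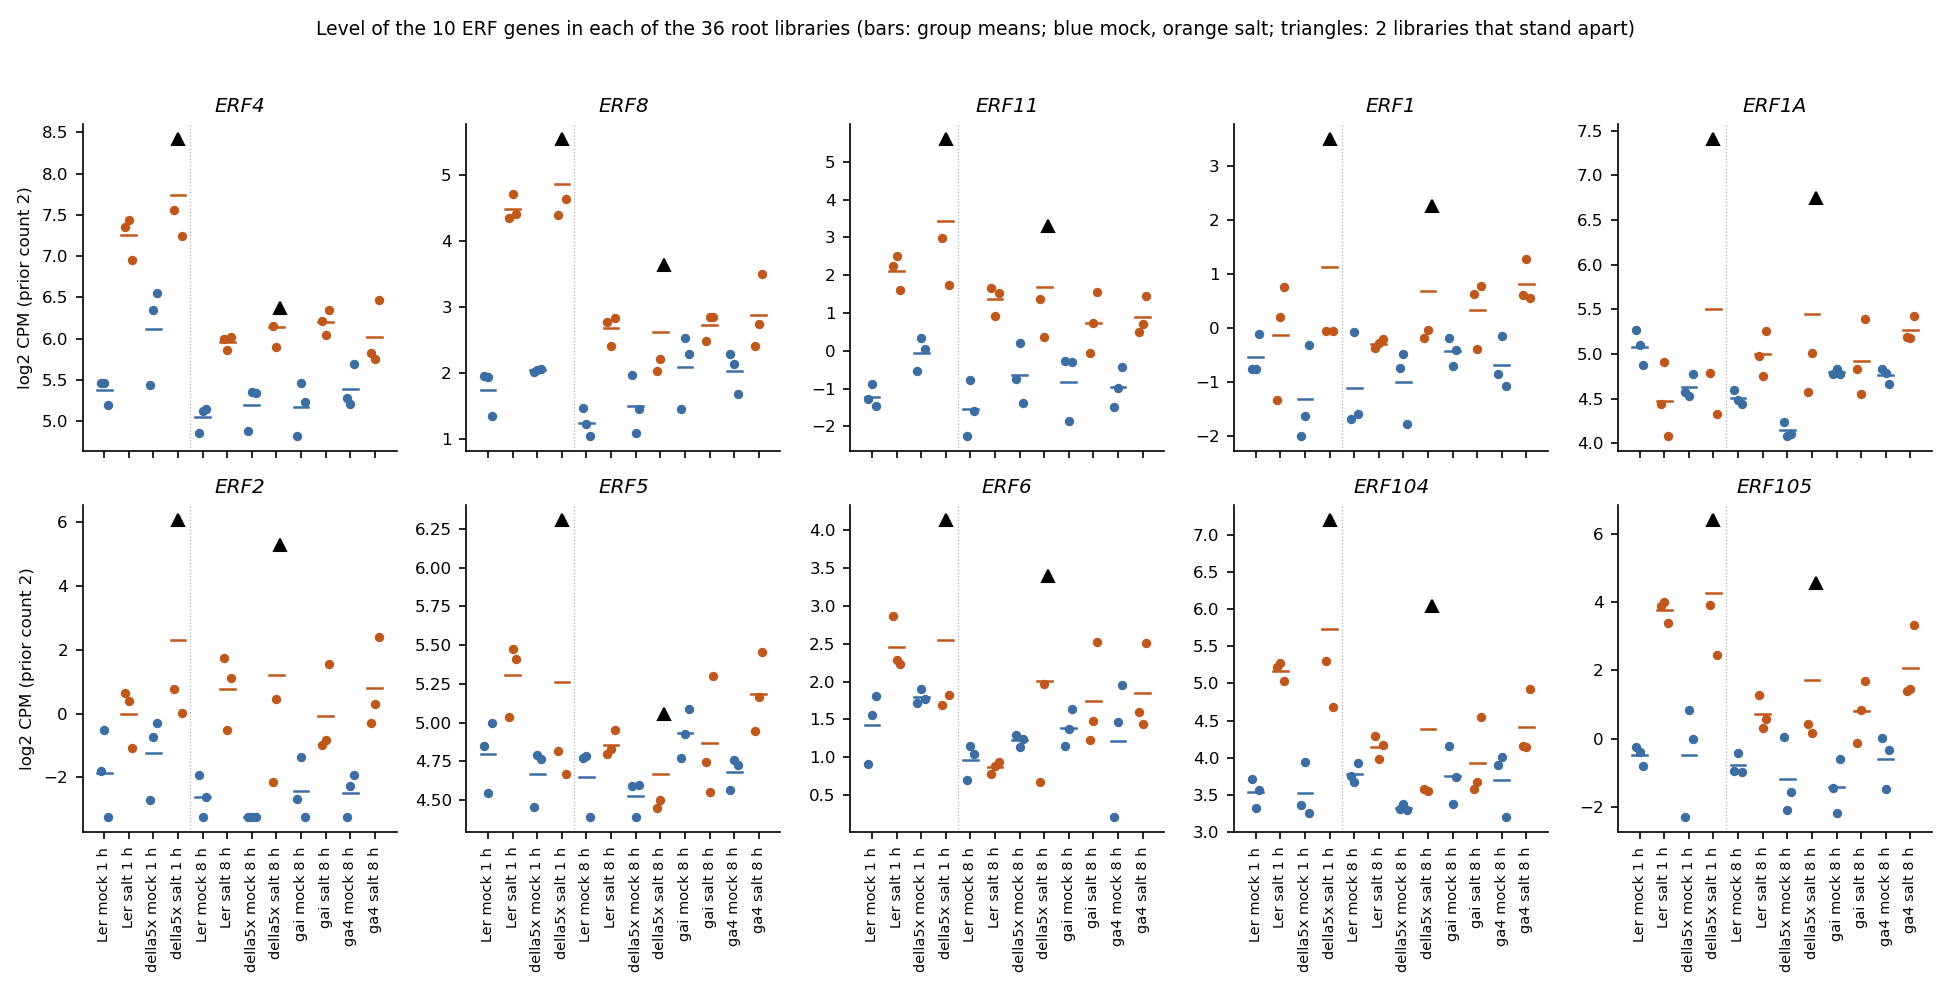
Level of each ERF gene in all 36 libraries (log2 CPM), with 1 panel per gene, the 12 groups on the horizontal axis, 1 point per library and a bar for each group mean. The triangles, replicate 2 of della5x salt at 1 h and replicate 3 of della5x salt at 8 h, were the highest of their groups in all 10 panels, and for ERF2 they reached 67.1 and 38.6 CPM where no other library was above 5.21 CPM.

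By 8 h the genes called in wild-type roots were the 3 repressors. In Ler 3 of the 10 genes rose (ERF4, ERF8 and ERF11) and none fell, where 12.9% of 20355 tested genes rose and 10.4% fell. The median log2 fold change was 0.81 over the 10 genes, against -0.01 over all tested genes. ERF4 had 28.8, 34.8 and 35.3 CPM under mock conditions and 63.4, 57.8 and 64.8 CPM on salt (log2 fold change 0.90 ± 0.19, adjusted P = 0.000668). ERF8 rose from 2.66, 2.22 and 1.95 CPM to 6.74, 5.21 and 7.03 CPM (1.47 ± 0.39, adjusted P = 0.00556). ERF11 rose from 0.104, 0.475 and 0.229 CPM to 3.06, 1.80 and 2.76 CPM (3.20 ± 0.77, adjusted P = 0.00268). None of the 3 genes overlapped between mock and salt, and each call held with any 1 of the 6 Ler libraries left out. The lack of overlap is a description, since the share of all tested genes without overlap was not counted.

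None of the 7 activators was called in Ler at 8 h. ERF2 came closest, with 0.157, 0 and 0.0572 CPM under mock conditions and 3.23, 0.599 and 2.04 CPM on salt (log2 fold change 4.65 ± 1.76, adjusted P = 0.0505). ERF105 had 0.417, 0.633 and 0.401 CPM against 2.34, 1.14 and 1.38 CPM (1.72 ± 1.00, adjusted P = 0.208). Both were without overlap, and in a fit of the 6 Ler libraries alone ERF2 (adjusted P = 0.0023), ERF105 (adjusted P = 0.0199) and ERF1A (adjusted P = 0.0125) passed the test, so that 6 of the 10 were called, where 14.2% of 19402 tested genes rose. In the fit of all 4 lines without the della5x library that stood apart, 4 were called, the repressors and ERF2 (adjusted P = 0.00871), where 13.1% of 20548 tested genes rose. ERF6 was back at 1.62, 1.74 and 1.81 CPM on salt, against 1.51, 2.11 and 1.95 CPM under mock conditions (-0.12 ± 0.53, adjusted P = 0.903).

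Comparing the responses of Ler at 8 h and at 1 h within 1 fit of the 12 Ler libraries showed that 5 of the 10 genes had a different response at the later time, where 20.5% of 19928 tested genes did at an adjusted P under 0.05. The difference is the log2 response at 8 h minus that at 1 h. It was -2.75 ± 0.50 for ERF105 (adjusted P = 0.00245), -1.31 ± 0.29 for ERF8 (adjusted P = 0.00731), -1.29 ± 0.18 for ERF104 (adjusted P = 0.000527) and -0.99 ± 0.18 for ERF4 (adjusted P = 0.00227), so that these 4 genes responded less at 8 h. ERF1A went the other way, with a difference of 1.07 ± 0.26 (adjusted P = 0.0118), from a response of -0.58 at 1 h to 0.50 at 8 h in the fits of each time. ERF11 showed no detectable difference (-0.49 ± 0.71, adjusted P = 0.677), and ERF6, with -1.16 ± 0.42, did not pass the test (adjusted P = 0.0716). All 5 calls held with each of the 12 Ler libraries left out in turn, and none of the 10 genes was called when all 36 libraries, with the pair that stood apart, were fitted together. Under mock conditions none of the 10 genes was called between 8 h and 1 h in Ler. Of all tested genes, 0.0803% rose and 0.497% fell from 1 h. Unadjusted, 3 of the 10 had a P under 0.05, as had 10.9% of all tested genes, and DESeq2 called 0. ERF1A in these mock libraries had 29.3 to 38.4 CPM at 1 h and 21.7 to 24.1 CPM at 8 h, without overlap. With 1 library left out, its log2 difference ran from -0.68 to -0.49. The part of this mock difference in the changed response of ERF1A was not tested.

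In della5x roots at 1 h the same 3 repressors rose, and the activators called were ERF2, ERF104 and ERF105. In all, 6 of the 10 genes rose and none fell, where 6.62% of 20073 tested genes rose and 3.52% fell. ERF8 had 3.92, 4.00 and 4.06 CPM under mock conditions and 20.8, 46.6 and 24.8 CPM on salt (log2 fold change 2.95 ± 0.29, adjusted P = 0.000122). ERF4 had 43.3, 81.3 and 93.5 CPM against 189, 342 and 151 CPM (1.65 ± 0.32, adjusted P = 0.00671), and ERF11 had 0.581, 1.15 and 0.926 CPM against 7.76, 48.6 and 3.21 CPM (4.49 ± 0.87, adjusted P = 0.00662). In each of these genes the second salt library was the highest, and the other salt libraries were also above all mock libraries. ERF104 had 10.2, 15.3 and 9.48 CPM against 39.4, 147 and 25.5 CPM (2.61 ± 0.53, adjusted P = 0.00839). ERF105 had 0.0968, 1.70 and 0.882 CPM against 15.03, 85.0 and 5.39 CPM (5.32 ± 1.00, adjusted P = 0.00573).

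ERF2, with 0.0484, 0.493 and 0.705 CPM under mock conditions, had 1.62, 67.1 and 0.917 CPM on salt, so that its log2 fold change of 5.78 ± 1.59 (adjusted P = 0.0372) rested mainly on replicate 2. Without that library it was 1.58 ± 1.03 (adjusted P = 0.34). The other 5 calls held without it, at 1.22 for ERF4, 2.50 for ERF8, 2.62 for ERF11, 1.47 for ERF104 and 3.53 for ERF105, where 6.85% of 20259 tested genes rose. In a fit of the 6 della5x libraries alone, with replicate 2 kept, ERF8 was the 1 gene called (adjusted P = 0.00523), where 3.66% of 19632 tested genes rose, and ERF4, ERF11, ERF104 and ERF105 had adjusted P values of 0.059, 0.0602, 0.073 and 0.0595. ERF1A had 23.7, 23.01 and 27.2 CPM against 27.5, 169.7 and 20.0 CPM, and its log2 fold change went from 1.56 ± 0.63 with the library (adjusted P = 0.137) to -0.06 ± 0.22 without it. ERF6 went likewise from 1.25 ± 0.57 (adjusted P = 0.189) to -0.05 ± 0.31, since it had 3.12 and 3.44 CPM in the other salt libraries and 3.20, 3.62 and 3.31 CPM under mock conditions. ERF5 had 28.1, 79.1 and 25.3 CPM on salt and 21.8, 27.6 and 27.1 CPM under mock conditions, and ERF1 had 0.862, 11.3 and 0.859 CPM against 0.145, 0.219 and 0.705 CPM. Neither ERF5 (0.80 ± 0.36, adjusted P = 0.183) nor ERF1 (3.56 ± 1.08, adjusted P = 0.0546) was called, and without the library they were at 0.06 ± 0.17 and 1.23 ± 0.79.

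At 8 h in della5x, 8 of the 10 genes rose, ERF5 and ERF6 being the exceptions, and none fell, where 13.7% of 20355 tested genes rose and 9.03% fell. This count depended on replicate 3 of the salt group, without which 3 genes were called, where 11.7% of 20548 tested genes rose. They were ERF4, which had 29.4, 40.7 and 40.4 CPM under mock conditions and 70.9, 59.4 and 82.9 CPM on salt (log2 fold change 0.95 ± 0.19, and 0.82 ± 0.20 without replicate 3, adjusted P = 0.00358), ERF1A and ERF2. ERF1A had 18.9, 16.8 and 17.1 CPM against 23.7, 32.2 and 108 CPM (1.63 ± 0.34, and 0.67 ± 0.18 without replicate 3, adjusted P = 0.0076). ERF2 had no count in any of the 3 mock libraries and 0.119, 1.28 and 38.6 CPM on salt. Against the level that 3 counts over the group would give, the pooled salt reads of ERF2 were at least 281-fold higher. Without replicate 3 they were at least 14.9-fold higher, and this rested on salt replicate 2, since salt replicate 1 held 2 counts.

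The repressors ERF8 and ERF11 and the activators ERF1, ERF104 and ERF105 were called at 8 h in della5x only with replicate 3. ERF8 had 3.78, 2.01 and 2.63 CPM against 3.98, 4.51 and 12.3 CPM, and its log2 fold change was 1.31 ± 0.38 (adjusted P = 0.0109) with and 0.61 ± 0.34 (adjusted P = 0.205) without that library. ERF104 had 9.76, 10.3 and 9.72 CPM against 11.8, 11.6 and 65.7 CPM (1.58 ± 0.46, and 0.24 ± 0.28 without it). ERF105 had 0.932, 0.131 and 0.235 CPM against 1.25, 1.03 and 23.4 CPM (4.34 ± 1.02, and 1.43 ± 0.79 without it). ERF11 went from 2.85 ± 0.70 to 1.57 ± 0.65 (adjusted P = 0.0831) and ERF1 from 2.28 ± 0.68 to 0.92 ± 0.64 (adjusted P = 0.314). ERF6 had 2.36, 2.1 and 2.25 CPM under mock conditions and 1.48, 3.79 and 10.4 CPM on salt, which overlapped, and its log2 fold change was 0.25 ± 0.48 without the library. ERF5 was at 0.17 with it and -0.05 ± 0.18 without it.

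**Figure D3:**
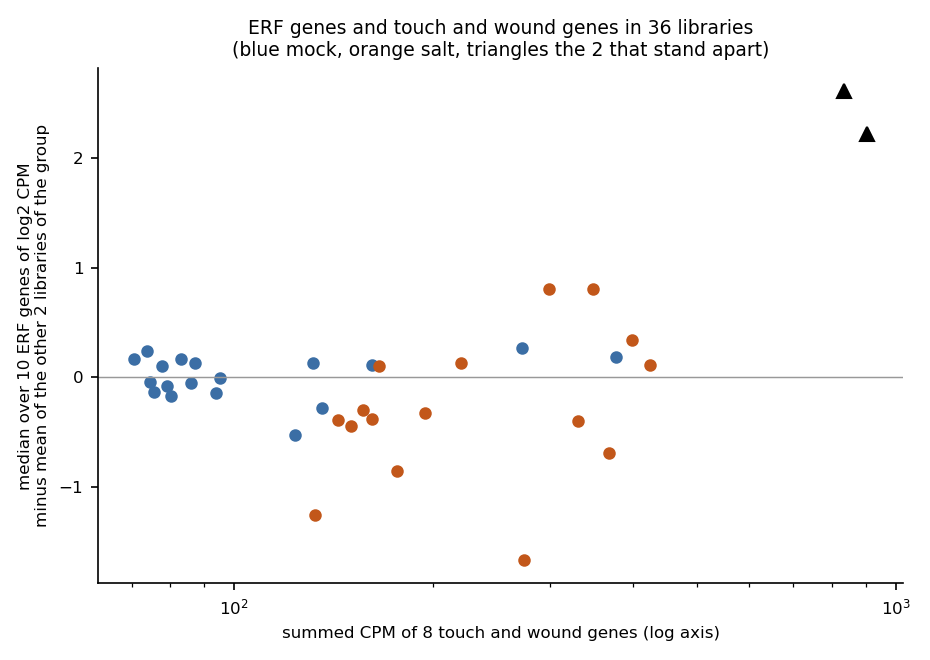
Each point is 1 of the 36 libraries, with the summed level of 8 touch- and wound-induced genes on the horizontal axis (CPM, log axis) and, on the vertical axis, the median over the 10 ERF genes of the log2 CPM minus the mean of the other 2 libraries of its group. The della5x salt libraries replicate 2 at 1 h and replicate 3 at 8 h had summed levels of 836 and 903 CPM, and the other 16 salt libraries had 133 to 425 CPM.

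Between the times, none of the 10 genes had a different response at 8 h and at 1 h in della5x, where 5.75% of 20177 tested genes did. Unadjusted, 1 of the 10 had a P under 0.05, as had 20.2% of all tested genes, and DESeq2 called 0. Without the pair of libraries that stood apart, ERF8 (-1.91 ± 0.35, adjusted P = 0.00585) and ERF104 (-1.24 ± 0.32, adjusted P = 0.0266) responded less at 8 h, where 13.9% of 20261 tested genes had a different response. Under mock conditions none of the 10 genes differed between 8 h and 1 h in della5x by edgeR, where 0.377% of tested genes rose and 1.72% fell from 1 h. For that comparison 1 gene had an unadjusted P under 0.05, as had 16.9% of all tested genes, and DESeq2 called 1. In the fit without the pair, ERF4 was called lower at 8 h (-0.98 ± 0.24, adjusted P = 0.0295), where 7.25% of tested genes were called.

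The lines with less GA signalling were sampled at 8 h. In gai, 1 of the 10 genes rose and none fell, where 10.6% of 20355 tested genes rose and 8.35% fell. This was ERF4, with 28.1, 44.0 and 37.5 CPM under mock conditions and 73.8, 65.6 and 81.1 CPM on salt (log2 fold change 1.00 ± 0.19, adjusted P = 0.000317), and its call held with any 1 gai library left out. ERF11 had 0.724, 0.170 and 0.703 CPM against 0.863, 1.57 and 2.82 CPM, and ERF105 had 0.259, 0.113 and 0.552 CPM against 0.805, 1.67 and 3.14 CPM. Both were higher in every salt library than in every mock library, but neither ERF11 (1.68 ± 0.71, adjusted P = 0.0893) nor ERF105 (2.54 ± 1.05, adjusted P = 0.0803) passed the test. ERF8 overlapped in gai, with 2.64, 5.66 and 4.77 CPM against 5.46, 7.10 and 7.04 CPM (0.57 ± 0.37, adjusted P = 0.284). In the fit without the della5x library that stood apart, ERF2, ERF11 and ERF105 were also called in gai (adjusted P = 0.0452, 0.0471 and 0.0133), which made 4 of the 10, where 10.9% of 20548 tested genes rose.

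In ga4, 5 of the 10 genes rose and none fell, where 10.7% of 20355 tested genes rose and 9.01% fell. ERF105 had 0.898, 0.251 and 0.689 CPM under mock conditions and 2.50, 2.65 and 10.04 CPM on salt (3.01 ± 0.96, adjusted P = 0.0234). ERF11 had 0.250, 0.401 and 0.636 CPM against 1.31, 1.54 and 2.63 CPM (2.07 ± 0.73, adjusted P = 0.0394), and ERF2 had 0, 0.1003 and 0.159 CPM against 0.715, 1.11 and 5.21 CPM (4.66 ± 1.69, adjusted P = 0.0467). ERF4 had 38.7, 36.8 and 51.5 CPM against 56.4, 53.9 and 88.2 CPM (0.63 ± 0.19, adjusted P = 0.0142), and ERF5 had 23.6, 26.9 and 26.4 CPM against 30.7, 35.8 and 43.7 CPM (0.51 ± 0.18, adjusted P = 0.0357). None of these 5 genes overlapped between mock and salt. This too is a description, without the share over all tested genes. Salt replicate 3 was the highest of its group for all 5, and it had the highest level of 9 of the 10 ERF genes, as did salt replicate 3 of gai. Those libraries had summed touch and wound levels of 348 CPM in ga4 and 299 CPM in gai. Leaving out 1 ga4 library at a time gave 0 to 6 called genes, with 0 without mock replicate 2 or salt replicate 3, 1 without mock replicate 1, and 2 without mock replicate 3 or salt replicate 2. In the fit without the della5x library that stood apart, 8 of the 10 were called, with ERF1, ERF8 and ERF104 added (adjusted P = 0.0323, 0.026 and 0.0404), where 10.9% of 20548 tested genes rose.

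**Figure D4:**
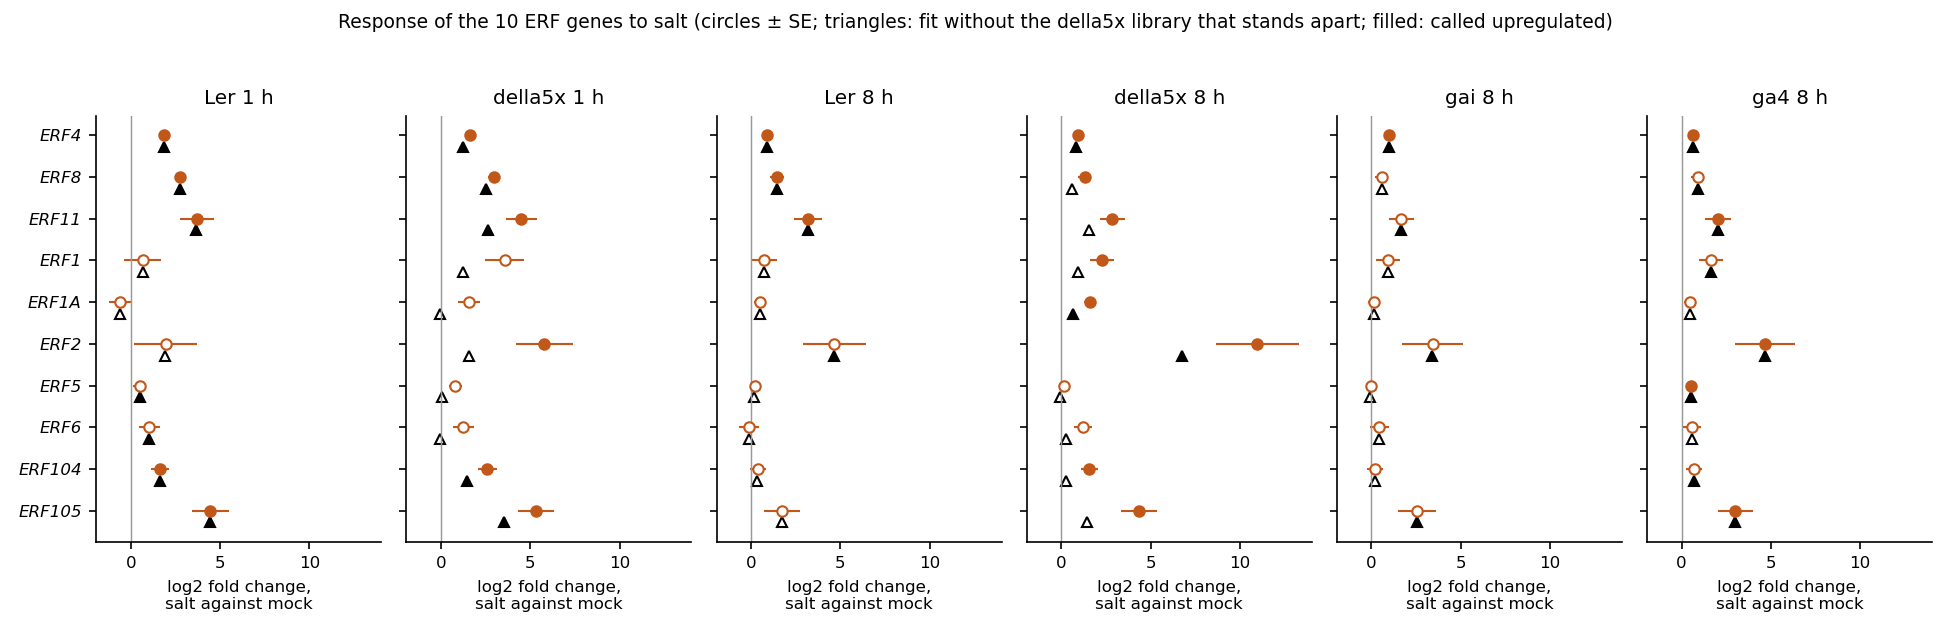
Log2 fold change of salt against mock for each ERF gene in each of the 6 responses, as circles with SE bars, and as triangles from the fit without the della5x library that stood apart, with filled symbols for called genes. ERF4 was called in all 6 responses in both fits, and ERF6 in none with the library and in 1, Ler at 1 h, without it.

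Over the 6 responses of genotype and time, ERF4 was called in 6, ERF11 in 5, ERF8 and ERF105 in 4, ERF2 and ERF104 in 3, ERF1, ERF1A and ERF5 in 1 and ERF6 in none. No gene fell in any of them. With the pair of libraries that stood apart left out of the fits, the calls were 6 for ERF4, 5 for ERF11, 4 for ERF2, ERF8 and ERF105, 3 for ERF104, 2 for ERF5 and 1 for ERF1, ERF1A and ERF6, again with none that fell. Equal counts did not always mean the same responses, since ERF8, ERF11, ERF104 and ERF105 lost the call in della5x at 8 h and gained 1 in ga4 or gai, and ERF1 was called in ga4 in place of della5x.

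Whether the response of a mutant differed from that of Ler was tested as the difference of the log2 responses and, following the paper, read at an unadjusted P under 0.05. For della5x at 1 h, 1 of the 10 genes passed, where 4.11% of 20073 tested genes did. ERF1A had a difference of 2.14 ± 0.88 (adjusted P = 1). For della5x at 8 h, 1 of the 10 passed, where 4.72% of 20355 tested genes did, and it was again ERF1A, at 1.13 ± 0.47 (adjusted P = 1). Without the libraries that stood apart these values were 0.52 ± 0.30 at 1 h and 0.18 ± 0.24 at 8 h, and neither passed at the unadjusted threshold. At 1 h ERF1A also missed it without Ler mock replicate 1 or 2, Ler salt replicate 1 or 3 or della5x mock replicate 1 or 2, so that 7 of the 12 libraries ended the result when left out, and at 8 h it missed it without Ler salt replicate 2. The sign over the 10 genes moved in the same way, with a larger response in della5x for 9 of 10 genes at 1 h with the library and for 2 of 10 without it, and for 7 of 10 at 8 h with and 4 of 10 without. ERF6 then had a smaller response in della5x at 1 h (-1.08 ± 0.42, adjusted P = 0.77), where 6.31% of 20259 tested genes passed in either direction.

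For gai none of the 10 genes passed, where 5.27% of 20355 tested genes did, and for ga4 none passed, where 5.04% did. DESeq2 also gave 0 for both. In the fit without the della5x library that stood apart, ERF8 passed in gai (-0.89 ± 0.43, adjusted P = 0.858), where 5.81% of 20548 tested genes did. ERF11 had the most negative estimate in both, at -1.52 ± 1.04 in gai and -1.13 ± 1.06 in ga4, and ERF8 was at -0.89 ± 0.53 and -0.56 ± 0.53. ERF4 passed the unadjusted threshold in none of the mutants. Its estimates were -0.23 ± 0.44 in della5x at 1 h, 0.04 ± 0.26 in della5x at 8 h, 0.09 ± 0.26 in gai and -0.27 ± 0.26 in ga4. Without the libraries that stood apart, ERF4 was at -0.66 ± 0.36 in della5x at 1 h and at -0.07 ± 0.27 at 8 h. The 3 differences at 8 h share the Ler libraries.

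Under mock conditions no ERF gene was called between a mutant and Ler. Of the 8 ERF genes tested at 1 h, none was called in della5x, where 0.165% of 19417 tested genes were, and 3 had an unadjusted P under 0.05, as had 2528 of the tested genes. Of the 9 tested at 8 h, none was called in della5x, gai or ga4, where 0.484%, 0.789% and 1.31% of 19645 tested genes were, and 2, 3 and 2 had an unadjusted P under 0.05, as had 9.35%, 14.5% and 12.4% of all tested genes. DESeq2 called 0 in each of these 4 comparisons. ERF2 had too few counts for these tests, as had ERF1 at 1 h. ERF4 had a mean of 72.7 CPM in della5x and of 41.5 CPM in Ler at 1 h. It was called when della5x mock replicate 1 was left out (1.08 ± 0.12, adjusted P = 0.0373). With 1 library left out at a time, the log2 difference at 1 h ran from 0.58 to 1.08 for ERF4. For ERF11 it ran from 1.16 to 1.63, without a call. Of the ERF genes tested, ERF1A had the smallest P in della5x at both times. At 1 h ERF1A had 23.7, 23.01 and 27.2 CPM in della5x against 38.4, 34.3 and 29.3 CPM in Ler (-0.46 ± 0.13, adjusted P = 0.24), and at 8 h 18.9, 16.8 and 17.1 CPM against 24.1, 22.3 and 21.7 CPM (-0.37 ± 0.10, adjusted P = 0.154). All della5x libraries were below all Ler libraries at both times. In gai at 8 h ERF1A was at 27.4, 28.5 and 27.3 CPM and in ga4 at 28.4, 27.5 and 25.2 CPM, all above the Ler libraries (0.29 ± 0.10, adjusted P = 0.182, and 0.26 ± 0.10, adjusted P = 0.267).

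GA2OX6, which encodes a GA-inactivating enzyme and is a reported target of ERF6, was set beside ERF6. In Ler at 1 h GA2OX6 had 52.0, 58.0 and 38.8 CPM under mock conditions and 98.9, 132 and 127 CPM on salt, and rose by 1.26 ± 0.18 on the log2 scale (adjusted P = 0.000661). In della5x at 1 h it had 53.5, 78.2 and 69.9 CPM against 97.6, 92.1 and 109 CPM, with a log2 fold change of 0.57 that was not called, and its response was smaller than in Ler (-0.69 ± 0.25, adjusted P = 1, past the unadjusted threshold, and -0.65 ± 0.26 without the library that stood apart). In della5x salt replicate 2, where ERF6 was highest at 17.5 CPM, GA2OX6 was the lowest of its 3 replicates. At 8 h GA2OX6 rose in all 4 lines, by 1.34 to 1.41 on the log2 scale, while ERF6 was called in none of them, with or without the della5x library that stood apart. From lowest to highest, GA2OX6 on salt had 44.3, 44.5 and 92.8 CPM in gai and 43.8, 55.1 and 106 CPM in ga4. In each of these groups 1 library was thus far above the others. The mock libraries of gai and ga4 had at most 26.1 and 34.7 CPM. In Ler at 8 h GA2OX6 had 32.97, 25.97 and 24.5 CPM against 79.6, 64.5 and 77.7 CPM, and ERF6 stayed between 1.51 and 2.11 CPM. Of the other reported targets, the zinc finger gene STZ rose in all 6 responses (3.64 in Ler at 1 h and 3.25 at 8 h). In della5x on salt, from lowest to highest, STZ had 41.0, 48.8 and 223 CPM at 1 h and 15.6, 20.0 and 128 CPM at 8 h. Its mock libraries of della5x had at most 15.4 and 2.96 CPM. The transcription factor gene WRKY33 rose in Ler at 1 h (2.23). MYB51, a regulator of indole glucosinolate synthesis, rose in Ler at 8 h (1.27). Thus 3 of the 4 targets were called in Ler at each time, where 8.54% of all tested genes rose at 1 h and 12.9% at 8 h.

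Among 14 further ERF genes of groups VIII and IX, 11 were tested. None rose in Ler at either time, where 8.54% of all tested genes rose at 1 h and 12.9% at 8 h. In Ler at 8 h 1 fell, ERF107, the neighbour of ERF104, where 10.4% of all tested genes fell. In della5x 2 rose at 1 h, where 6.62% rose. At 8 h 2 rose and 1 fell in della5x, where 13.7% rose and 9.03% fell. For gai 1 rose, where 10.6% rose, and for ga4 2 rose and 1 fell, where 10.7% rose and 9.01% fell. ERF107 had 10.8, 19.5 and 23.7 CPM under mock conditions and 39.2, 20.99 and 25.4 CPM on salt at 1 h, and 29.2, 24.8 and 24.8 CPM against 6.52, 8.45 and 9.50 CPM at 8 h (log2 fold change -1.69 ± 0.37, adjusted P = 0.00113). The adjacent genes ERF104 and ERF107 thus had estimates of opposite sign at 8 h in Ler, with 0.36 ± 0.45 for ERF104. The median log2 fold change of the 11 genes was 0.47 in Ler at 1 h and 0.08 at 8 h. In della5x, ERF13 rose at both times, and it reached 103 CPM in salt replicate 2 at 1 h and 41.0 CPM in salt replicate 3 at 8 h, with at most 3.29 CPM in the other salt libraries of della5x. Without that pair ERF13 was not called in della5x (1.70 ± 0.87 at 1 h and 2.096 ± 1.25 at 8 h), and in Ler ERF106 fell at 1 h (-0.80 ± 0.20, adjusted P = 0.0146) and ERF14 rose at 8 h (4.405 ± 1.48, adjusted P = 0.0298).

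Of 12 tested genes of ethylene perception and signalling, 1 rose in Ler at 1 h, where 8.54% of all tested genes rose, the receptor gene ERS2 (1.79 ± 0.34), and 5 at 8 h, where 12.9% rose, the receptor genes ETR2 (1.28), ERS1 (0.68) and ERS2 (1.70), the receptor regulator RTE1 (0.64) and EBF2 (0.61), an F-box gene for the turnover of EIN3. None fell. The medians were 0.01 and 0.31. The response of Ler at 8 h exceeded that at 1 h for ETR2 (by 1.595), ERS1 (by 0.67) and EBF2 (by 0.88), with adjusted P values of 0.00719, 0.00245 and 0.00456. At 8 h 6 of the 12 rose in della5x, 3 in gai and 5 in ga4, where 13.7%, 10.6% and 10.7% of all tested genes rose. Of 5 genes of the MAP kinase pathway that acts on ERF proteins, MKK9 alone rose in Ler at 1 h (1.35 ± 0.41, adjusted P = 0.0453), where 8.54% of all tested genes rose. None was called in Ler, gai or ga4 at 8 h, where 12.9%, 10.6% and 10.7% rose. With all libraries kept, MKK9 alone also rose in della5x, by 1.93 ± 0.41 at 1 h (adjusted P = 0.0119) and 0.78 ± 0.28 at 8 h (adjusted P = 0.0374). The shares of all tested genes that rose there were 6.62% and 13.7%. Of 6 defence genes with a GCC box in their promoters, the 4 defensin genes had too few counts to be tested. The other 2, HEL and CHI-B, rose at 8 h in all 4 lines, by 1.18 and 1.303 in Ler, and neither rose in Ler at 1 h. CHI-B rose in della5x at 1 h (1.47 ± 0.32, adjusted P = 0.0124). With all libraries kept, both responses at 8 h were larger in della5x than in Ler at the unadjusted threshold. The differences were 0.71 ± 0.24 for HEL and 0.83 ± 0.32 for CHI-B (adjusted P = 0.996 for both), and 4.72% of all tested genes passed. Neither gene passed in gai or ga4. Under mock conditions at 8 h both genes had lower estimates in della5x than in Ler, without a call. The log2 differences were -0.56 ± 0.17 for HEL and -0.65 ± 0.25 for CHI-B (edgeR, adjusted P = 0.22 and 0.411). The part of these mock levels in the larger responses of della5x was not tested. The 8 touch and wound genes rose in 6 cases in Ler at 1 h and in 7 cases at 8 h. In della5x 3 of the 8 were called at 1 h, where 6.62% of all tested genes rose, and 8 at 8 h, where 13.7% rose. In gai and ga4 5 were called at 8 h, where 10.6% and 10.7% rose. The 8 genes summed to 368, 836 and 274 CPM in the della5x salt libraries at 1 h and to 133, 176 and 903 CPM at 8 h. The highest sum at each time was that of the library that stood apart.

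The 10 genes varied more between replicates than most genes. Within groups the SD of log2 CPM was highest for ERF2 (1.75, above 99.9% of 20714 genes) and ERF105 (1.22, above 98.8%), then ERF1 (0.93), ERF11 (0.91), ERF6 (0.70), ERF104 (0.63), ERF1A (0.62), ERF8 (0.44), ERF5 (0.34) and ERF4 (0.33, above 64.8%), against a median of 0.24 over all genes. ERF2, ERF105, ERF1 and ERF11 were also the genes with the lowest levels under mock conditions. Without the pair of libraries that stood apart, the SD of ERF1A fell from 0.62 to 0.24 and that of ERF5 from 0.34 to 0.21, near the median of all genes, which was then 0.22, while ERF2 stayed at 1.11 and ERF105 at 0.87.

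Over the 12 group means of log2 CPM, all 45 pairs of the 10 genes had a positive Pearson r, from 0.40 to 0.96 (ERF4 and ERF8) with a median of 0.79. Without the pair of libraries that stood apart 43 of the 45 were positive, from -0.05 to 0.94 with a median of 0.63. For the deviations of the 36 libraries from their group means the median r was 0.69, with all 45 positive, and it was 0.33 without that pair, with 41 positive and a lowest value of -0.11. The points share libraries and normalisation, and these values are a description. Among all genes, the one most like ERF105 over the 12 group means was WRKY33 (r = 0.98). ERF4 was most like AT1G63720 and ATAF1 (r = 0.98 for both), a NAC transcription factor gene of stress responses, and ERF8 was most like PYL7 (r = 0.98), an abscisic acid receptor gene. ERF2 was most like ORA47 (r = 0.97), an early jasmonate-responsive ERF gene of the touch and wound list, and ERF5 had GID1A, a GA receptor gene, as its second (r = 0.92). Without the pair, WRKY33 was second for ERF105 (r = 0.97) and ATAF1 second for ERF4 (r = 0.98), and AT1G63720, PYL7, ORA47 and GID1A were no longer among the nearest 2. Within groups, over 36 libraries, ERF1A was most like MPK3 (r = 0.92), ERF2 like ERF13 (r = 0.92), ERF104 like MYC2 (r = 0.91), a jasmonate signalling gene, and ERF5 like HAT22 (r = 0.93). Without the pair of libraries, ERF13 remained first for ERF2 (r = 0.81) and HAT22 for ERF5 (r = 0.81), and other genes came first for ERF1A and ERF104.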

How the data were processed

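Roots of Arabidopsis were sequenced as paired-end libraries (NEBNext Ultra RNA kit), and the authors trimmed reads with fastp, aligned them to TAIR10 with Hisat2 and deposited the raw counts per gene from HTSeq-Count, for 28775 genes. Tool versions, counting mode and strand setting are not given in the sources used here. Groups came from the labels, which carry no replicate numbers, so replicates were numbered in accession order and not paired. Every column of the table was used.

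Counts were tested with edgeR 4.0.16 under R 4.3.3: TMM, filterByExpr (minimum count 10, minimum total 15), glmQLFit and glmQLFTest with 1 coefficient per group, and Benjamini-Hochberg adjustment over all genes tested. A call needed a log2 fold change beyond 0.5 and an adjusted P under 0.05, and differences from Ler, following the paper, an unadjusted P under 0.05. The fit at 1 h held 12 libraries and that at 8 h 24, while mock comparisons used mock libraries and time comparisons the 12 libraries of a line. The SE was taken from the F statistic. CPM values are TMM-normalised, except for the levels of AT5G51180, and log2 CPM used a prior count of 2. The 10 genes and all lists, and hence the genes named, were chosen with earlier results of these data known. Other genes were named where called in a list, and for likeness the 2 genes with the highest Pearson r per ERF gene were taken. Upstream windows, positions and transcripts came from RefSeq TAIR10.1, in which 28009 of the 28775 identifiers were found. The libraries are separate pools of seedlings, and P values measure the spread between them only.

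Alternatives were RLE size factors, no low-count filter, DESeq2 1.42.0, other sets of libraries in the fit and each library left out in turn. Leaving the pair of della5x libraries that stood apart out of every fit that held them was chosen after seeing the data. The tests were tested on simulated data.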

Additional observations from a re-analysis of the deposited data

Results flagged for a closer look

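For ERF1A, an activator of GCC-box genes, the test of the difference between the responses of della5x and Ler passed the unadjusted threshold at both times, with 2.14 on the log2 scale at 1 h and 1.13 at 8 h (edgeR, adjusted P = 1 for both), as did 4.11% and 4.72% of all tested genes. These values were 0.52 and 0.18, past no threshold, without the pair of della5x salt libraries that stood apart. The threshold was missed without any 1 of 7 of the 12 libraries at 1 h and of 2 of the 12 at 8 h.

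Within Ler, 5 ERF genes had a response that differed between 8 h and 1 h. The log2 difference was 1.07 for ERF1A, -0.99 for ERF4, -1.31 for ERF8, -1.29 for ERF104 and -2.75 for ERF105. Each passed the adjusted threshold, with 20.5% of all tested genes doing so.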

How the results depend on the processing

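All counts here are of the 10 ERF genes called. RLE size factors and no low-count filter changed no count by more than 1.5 times. With DESeq2, the difference between della5x and Ler gave 2 genes at 1 h and 3 at 8 h, the gai response 2, and della5x mock at 8 h against 1 h 1. With only the libraries compared in the fit, the count was 1 for the della5x response at 1 h, 6 for Ler at 8 h, 4 for della5x at 8 h, 2 for gai, 0 for the della5x difference at 8 h and 1 for the gai difference. With all 36 libraries in 1 fit it was 2 and 0 for the della5x difference at 1 h and 8 h, 1 for ga4, 0 for the change of the Ler response between times, 1 for that of della5x and 1 for della5x mock at 8 h against 1 h. Without the pair of della5x libraries that stood apart it was 3 for della5x at 8 h, 4 for gai, 8 for ga4, 0 for the della5x difference from Ler at 8 h, 1 for that of gai, 2 for the change of the della5x response between times and 1 for della5x mock at 8 h against 1 h. The cause of these shifts was not tested.

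Leaving out 1 library at a time gave 2 to 4 genes for Ler at 1 h, 3 to 9 for della5x at 8 h, 0 to 6 for ga4, 0 to 3 for the della5x difference at 1 h and 0 to 4 at 8 h, 0 to 1 for the gai and ga4 differences, 0 to 1 for della5x against Ler under mock conditions at 1 h and 0 to 1 for the change of the della5x response between times. The estimate changed sign for genes that had not been called. Without the pair that stood apart it was -0.061 for ERF1A and -0.048 for ERF6 in della5x at 1 h, -0.049 for ERF5 in della5x at 8 h and -1.08 for the ERF6 difference at 1 h. With 1 library left out these ran from -0.061 to 2.00, from -0.048 to 1.64, from -0.049 to 0.28 and from -1.08 to 0.60. In gai they ran from -0.11 to 0.32 for ERF1A, from -0.30 to 0.095 for ERF5, from -0.059 to 0.69 for ERF6 and from -0.19 to 0.42 for ERF104. Counts near 0 in ERF1, ERF2, ERF11 and ERF105 under mock conditions limit the precision of their fold changes. No paired analysis was possible because the labels carry no replicate numbers.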
